A study of Mus musculus with 6 samples.

Results

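The *immunoglobulin light chain* rows in the deposited expression table are the subject of this section. They comprise every row whose Entrez ID belongs to a mouse symbol starting with *Igkv*, *Igkj*, *Igkc*, *Iglv*, *Iglj* or *Iglc*, which gave 16 of 13426 rows. There were 9 kappa V segments, 5 kappa J segments, the kappa constant gene *Igkc* and 1 lambda V segment, *Iglv3*. No lambda J or lambda C row was found. Early large pre-B cells (early LPre-B cells) from the mouse bone marrow were profiled by RNA sequencing with 3 libraries per group. Ctrl mice carried the genotype *Upf1* Flox/Flox, *Mb1* +/+, and Upf1-cKO mice carried *Upf1* Flox/Flox, *Mb1* Cre/+. Both groups therefore held floxed *Upf1* alleles, in which loxP sites surround internal exons of the gene for the RNA helicase UPF1. *Mb1* is the *Cd79a* locus, which is active in B lineage cells, so the Cre recombinase and 1 altered *Cd79a* allele also distinguished the groups. Mice were age-matched adults of both sexes on a C57BL/6 background, and the age behind each library was not given. Cells were gated as lineage-negative, B220+, CD43+, large, and negative for surface IgM and CD2.

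An antibody light chain is encoded by a V segment, a J segment and a constant region, and the V and J segments are cut and joined by the RAG recombinase. In bone marrow B cell development this joining normally follows that of the heavy chain, and it is typical of small pre-B cells, a later stage than the one sorted here. Most mouse light chains are of the kappa type. Kappa V segments lie in either orientation relative to the J segments, so that joining inverts the DNA between them or deletes it. Unjoined J and C segments can also be transcribed, and the reads of a gene-level table do not separate joined from unjoined transcripts.

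All 5 kappa J segments were annotated on chromosome 6 (GRCm38, plus strand), between chr6:70722562-70722599 for *Igkj1* and chr6:70723886-70723923 for *Igkj5*. Their reference sequences are printed because the J rows changed together and one of them differs from the others in the part that is conserved. Capitals mark the stretch from TTC to the GGN triplet, which encodes the conserved turn that opens the last framework region of the chain.
Igkj1: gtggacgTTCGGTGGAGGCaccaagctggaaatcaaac
Igkj2: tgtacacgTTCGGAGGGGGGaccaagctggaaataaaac
Igkj3: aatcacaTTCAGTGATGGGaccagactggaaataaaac
Igkj4: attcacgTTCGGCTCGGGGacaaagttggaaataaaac
Igkj5: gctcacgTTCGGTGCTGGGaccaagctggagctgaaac
The letters TTCGG occur on the coding strand in 4 of the 5 segments and not in *Igkj3*, which is known as a J segment that functional kappa chains do not use. Identity between pairs of J segments ranged from 71.05% for *Igkj3* and *Igkj4* to 84.21% for *Igkj1* and *Igkj2*. No stretch of 30 bases in any of them was shared with a transcript of another gene.

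For the kappa V segments, the germline ends at which the J segment is joined are shown for those with a change past the threshold or with groups that did not overlap. Capitals mark the codon of the conserved cysteine that precedes the joining region.
Igkv1-88: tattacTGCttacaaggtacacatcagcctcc
Igkv12-89: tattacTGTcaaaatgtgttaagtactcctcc
Igkv9-124: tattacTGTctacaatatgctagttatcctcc
Igkv9-123: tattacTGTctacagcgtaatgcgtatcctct
Igkv14-111: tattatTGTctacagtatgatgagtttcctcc
*Igkv9-124* and *Igkv9-123* were 90.52% identical over their transcripts. Of the 50-base windows of *Igkv9-124*, 31.25% also occurred in a transcript of another gene, most often *Igkv9-120*, so its reads may be split with that gene. The same share was 0.915% for *Igkv9-123* and 0 for *Igkv1-88*, *Igkv12-89* and *Igkv14-111*. The constant gene *Igkc* (chr6:70726435-70726754) begins with gggctgatgctgcaccaactgtatccatct, the sequence that a J segment is spliced to. Sequences and windows come from the transcripts of GENCODE release M21 (GRCm38).

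Recovered reads totalled between 9732498 and 11006834 per library. The table lists values that the authors normalised, with 0.5 read added to each count, and in the text the added 0.5 is removed and the result is called normalised reads. The deleted exons cannot be seen in a gene-level row, and *Upf1* itself was 0.31 higher on the log2 scale in the libraries labelled Upf1-cKO (SE 0.089, limma adjusted p = 0.00696), at 297 ± 12.7 normalised reads against 241 ± 32.3 (SD, n = 3 each). The row thus does not check the labels, and these libraries are called cKO-labelled. *Gas5*, a known target of nonsense-mediated decay that was picked after its values were seen, was at 325 ± 69.1 normalised reads in Ctrl and 1622 ± 114 in cKO-labelled libraries (log2 fold change 2.33, limma adjusted p = 2.34e-07). *Spn*, which encodes the gate marker CD43, was present in every library, between 194 and 239 normalised reads in Ctrl and between 219 and 230 in cKO-labelled libraries. Neutrophil markers, from a cell type outside the gate, summed to between 14.7 and 134.1 normalised reads in Ctrl and between 356.7 and 496.9 in cKO-labelled libraries. Ctrl library 1 stood apart within its group, with *S100a9* at 21.9 normalised reads against 2.12 and 2.88 in Ctrl libraries 2 and 3.

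The summed light chain transcripts were lower in cKO-labelled early LPre-B cells. Ratios of Ctrl to cKO-labelled means lay between 5.82 and 10.6 for the kappa J segments. The ratio was 8.67 for the kappa V segment *Igkv1-88*, while *Igkc* differed most in normalised reads. Not all rows were lower, and *Igkv14-111* and *Iglv3* were called higher. The 16 rows together held 94.9, 82.8 and 89.1 normalised reads in Ctrl libraries 1, 2 and 3, and 32.5, 35.9 and 32.1 in cKO-labelled libraries 1, 2 and 3. The lowest Ctrl library was thus above the highest cKO-labelled library, by a ratio of group means of 2.65. In recovered reads the sums were 820 to 897 against 333 to 398, or 74.5 to 88.15 against 34.22 to 38.92 per 1000000 reads, so light chain transcripts were rare in both groups. On the log2 scale the difference of the sums was -1.41, with p = 0.1 in an exact two-sided permutation test, which is the smallest value that 3 libraries against 3 can give. The same limit holds for all sums and ratios in this section.

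By row, 9 of the 16 were called lower and 2 higher at an adjusted p below 0.05, where limma (with Benjamini-Hochberg adjustment over all rows) called 25.0% of the table lower and 27.7% higher. The groups did not overlap for 10 rows in the lower direction and 1 in the higher direction, against 27.9% and 30.9% of all rows. On the recovered reads, edgeR called 10 rows lower and 1 higher (24.9% and 27.1% of the table), limma with voom weights 10 and 1 (24.9% and 27.4%), and DESeq2 9 and 0 (24.4% and 24.7%), with 1 row higher at an unadjusted p below 0.05 in DESeq2. The median log2 fold change was -1.05 over the 16 rows and 0.01 over the whole table. The called rows were not spread evenly over the classes of segment. All 5 kappa J rows and *Igkc* were called lower, while of the 9 kappa V rows 3 were called lower, 1 higher and 5 neither. Every row of the table exceeded a deposited value of 0.5 in at least 3 libraries, so a row above it in 1 group alone had to differ. That held for *Igkv9-124*, one of the 9 called lower, and for *Igkv9-123*, both above 0.5 in all 3 Ctrl libraries and in no cKO-labelled library, so these rows support nothing. *Igkv12-89*, *Igkj1*, *Igkj2* and *Igkj4* exceeded it in all Ctrl libraries and 1 cKO-labelled library, and *Igkj5* in 2. Leaving out each library in turn kept the number called lower at 9.

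**Figure D1:**
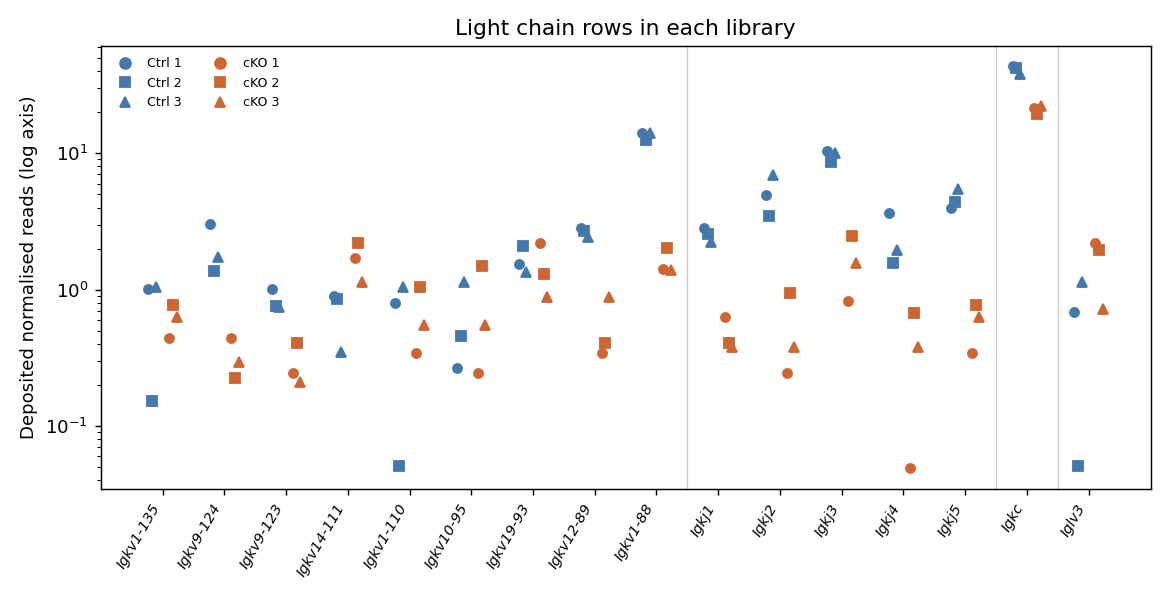
Deposited normalised reads (log axis, with the added 0.5 read kept so that a count of 0 can be drawn) of each of the 16 light chain rows in each library, Ctrl in blue and cKO-labelled in orange, with circles, squares and triangles for replicates 1, 2 and 3. The 6 J and C rows and *Igkv1-88* separate the groups, while *Igkv19-93* and *Iglv3* do not.

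The constant gene *Igkc* encodes the part shared by all kappa chains and was the light chain row with the most reads in every library. It held 43.6, 41.9 and 38.0 normalised reads in Ctrl libraries and 21.6, 19.5 and 22.2 in cKO-labelled libraries. Every Ctrl library was above every cKO-labelled library, and the means were 41.2 ± 2.84 and 21.1 ± 1.41 (SD, n = 3 each). Its log2 fold change was -0.93 (SE 0.11, limma adjusted p = 9.72e-07). In cKO-labelled libraries it still had 216 to 263 reads. *Ighm*, which encodes the constant region of the mu heavy chain, was measured at 1510 ± 147 normalised reads in Ctrl and 1191 ± 34.6 in cKO-labelled libraries, a log2 fold change of -0.34 (SE 0.074, limma adjusted p = 0.000889). The ratio of *Igkc* to *Ighm* within a library was 0.0264, 0.0275 and 0.0281 in Ctrl and 0.0177, 0.0169 and 0.0184 in cKO-labelled libraries. That ratio does not depend on the scaling of a library, and it was lower in each cKO-labelled library by a log2 difference of the means of -0.63 (exact permutation p = 0.1).

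The kappa J segments, which supply the end of the variable domain, differed more than *Igkc*. Their summed level was 25.6, 20.4 and 26.4 normalised reads in Ctrl libraries and 1.85, 5.05 and 3.12 in cKO-labelled libraries. The ratio of means was 7.23 and the log2 difference -2.96 (exact permutation p = 0.1), on 202 to 266 reads in Ctrl and 19 to 56 in cKO-labelled libraries. *Igkj3*, the segment without TTCGG, held 10.4, 8.59 and 10.03 normalised reads in Ctrl and 0.781, 2.43 and 1.52 in cKO-labelled libraries. The groups were far apart, and the log2 fold change was -2.08 (SE 0.23, limma adjusted p = 4.23e-07). *Igkj2* held 4.89, 3.44 and 6.85 against 0.195, 0.902 and 0.337 normalised reads, with a fold change of -1.99 on the log2 scale (SE 0.25, limma adjusted p = 1.95e-06). For *Igkj5* the levels were 3.93, 4.34 and 5.46 against 0.293, 0.721 and 0.590, and the log2 fold change was -1.83 (SE 0.21, limma adjusted p = 9.96e-07). *Igkj2* ranged from 3.44 to 6.85 between Ctrl libraries, and its lowest Ctrl value was still above its highest cKO-labelled value.

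The other J segments, *Igkj1* and *Igkj4*, were the least abundant in Ctrl libraries. *Igkj1* held 2.76, 2.53 and 2.18 normalised reads in Ctrl and 0.585, 0.361 and 0.337 in cKO-labelled libraries, and its log2 fold change was -1.27 (SE 0.21, limma adjusted p = 5.51e-05). *Igkj4* held 3.61, 1.52 and 1.89 in Ctrl and 0, 0.631 and 0.337 in cKO-labelled libraries, and its log2 fold change was -1.29 (SE 0.26, limma adjusted p = 0.000347). No read of *Igkj4* was found in cKO-labelled library 1, which allows up to 3 reads, or 0.293 normalised reads. Neither segment overlapped between the groups. Fold changes on the log2(value + 1) scale understate differences at these levels, and the ratios of means were 5.82 for *Igkj1*, 10.6 for *Igkj2*, 6.13 for *Igkj3*, 7.24 for *Igkj4* and 8.56 for *Igkj5*.

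Among the J segments *Igkj3* was the most abundant in both groups. Per kilobase of segment, the Ctrl levels were 254.6 ± 25.3 for *Igkj3*, 129.7 ± 44.0 for *Igkj2*, 120.5 ± 20.8 for *Igkj5*, 65.5 ± 7.64 for *Igkj1* and 61.5 ± 29.4 for *Igkj4* (SD, n = 3). *Igkj3* was the highest in every Ctrl library, while *Igkj2* and *Igkj5*, and likewise *Igkj1* and *Igkj4*, were within their spread of each other. Because a read only needs to touch such a short segment, these values can be compared among J segments but not with V or C. In cKO-labelled libraries *Igkj3* was again first, at 41.5 ± 21.8 per kilobase, and the other 4 segments lay between 8.49 ± 8.31 and 14.1 ± 5.78, within their spread. *Igkj3* took 40.7%, 42.1% and 38.0% of J reads in Ctrl and 42.1%, 48.2% and 48.7% in cKO-labelled libraries. The highest Ctrl share and the lowest cKO-labelled share were nearly equal, at 42.08% and 42.11%.

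**Figure D2:**
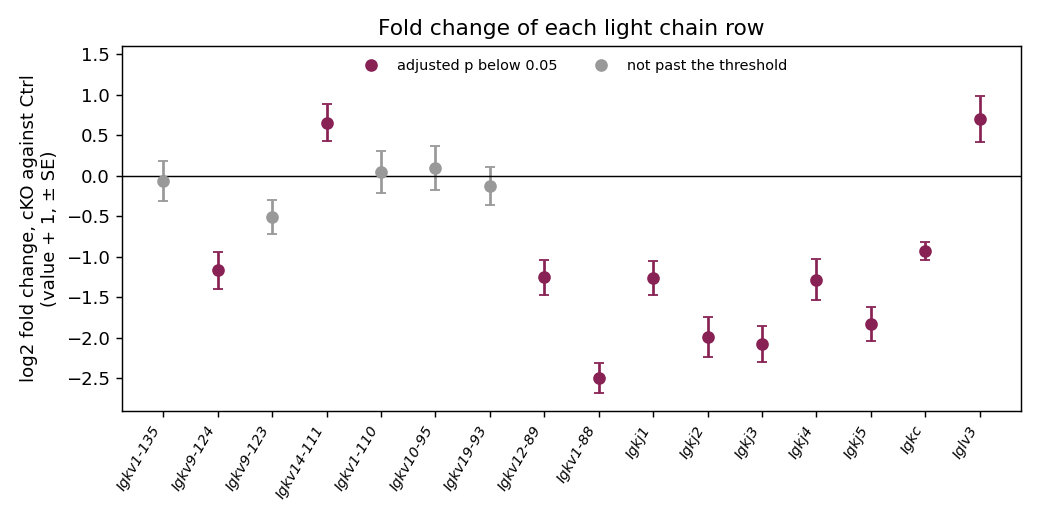
Log2 fold change (cKO-labelled against Ctrl, on log2(value + 1)) of the 16 light chain rows, with bars of 1 limma standard error. Rows past an adjusted p of 0.05 are dark and the others grey, and the kappa V rows, ordered along the locus, range from -2.49 to 0.65 while all J and C rows are negative.

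The kappa V segments encode most of the variable domain, and as a class they were uneven. Their sum was 25.1, 20.5 and 23.5 normalised reads in Ctrl and 6.93, 9.47 and 6.15 in cKO-labelled libraries, a ratio of means of 3.07 and a log2 difference of -1.64 (exact permutation p = 0.1). Much of that sum came from 1 segment. *Igkv1-88* (chr6:68862265-68863031, minus strand) held 14.1, 12.5 and 14.1 normalised reads in Ctrl and 1.37, 1.98 and 1.35 in cKO-labelled libraries. These groups were well separated, with means of 13.6 ± 0.916 and 1.57 ± 0.362 (SD, n = 3 each), a ratio of 8.67 and a log2 fold change of -2.49 (SE 0.19, limma adjusted p = 3.42e-09). *Igkv1-88* made up 56.4%, 61.1% and 59.9% of kappa V reads in Ctrl and 19.7%, 21.0% and 21.9% in cKO-labelled libraries. Without it, the log2 difference of the kappa V sum was -0.68, and without *Igkv9-124* and *Igkv9-123* as well it was -0.32, with sums of 7.01, 5.96 and 7.05 normalised reads in Ctrl and 4.98, 6.94 and 4.38 in cKO-labelled libraries, which overlapped (exact permutation p = 0.2). A lower kappa V sum was thus not shown for the remaining 6 rows.

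*Igkv12-89*, the neighbouring row along the locus, held 2.76, 2.63 and 2.38 normalised reads in Ctrl and 0.293, 0.361 and 0.843 in cKO-labelled libraries. Its groups did not overlap, and its log2 fold change was -1.25 (SE 0.22, limma adjusted p = 8.75e-05). *Igkv9-124* held 2.97, 1.31 and 1.69 in Ctrl and 0.390, 0.180 and 0.253 in cKO-labelled libraries, and its log2 fold change was -1.17 (SE 0.23). *Igkv9-123*, the close relative of *Igkv9-124*, held 0.956, 0.707 and 0.695 against 0.195, 0.361 and 0.169. Its log2 fold change was -0.51 (SE 0.21), on 7 to 9 reads in Ctrl and 2 to 4 in cKO-labelled libraries. Both rows entered the table through the Ctrl libraries alone, so their differences are given as a description.

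*Igkv14-111* was the one kappa V row called higher. It held 0.850, 0.808 and 0.298 normalised reads in Ctrl and 1.66, 2.16 and 1.10 in cKO-labelled libraries. Each cKO-labelled library was above each Ctrl library, and the log2 fold change was 0.65 (SE 0.23, limma adjusted p = 0.0240). The row rested on 3 to 8 reads in Ctrl and 13 to 24 in cKO-labelled libraries, and it was not called when Ctrl library 3, cKO-labelled library 1 or cKO-labelled library 2 was left out (limma adjusted p = 0.116, 0.0585 and 0.113), nor by DESeq2 (adjusted p = 0.0705) or after median centring (limma adjusted p = 0.0559).

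The remaining 4 kappa V rows overlapped between the groups. *Igkv19-93* had levels of 1.49, 2.02 and 1.29 in Ctrl and 2.15, 1.26 and 0.843 in cKO-labelled libraries (log2 fold change -0.13, SE 0.23, limma adjusted p = 0.662). *Igkv1-135*, *Igkv1-110* and *Igkv10-95* each held at most 11 reads in a Ctrl library and at most 16 in a cKO-labelled library, and their log2 fold changes of -0.06, 0.04 and 0.09 had standard errors from 0.25 to 0.27. With so few reads and errors of this size, neither a difference nor its absence was shown for these rows. Between 17.8% and 50.9% of the 50-base windows of these 3 segments were shared with other genes, so their reads are also uncertain in origin.

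The kappa V rows were also grouped by orientation. The 5 V segments on the strand opposite to the J segments (*Igkv9-124*, *Igkv9-123*, *Igkv19-93*, *Igkv12-89* and *Igkv1-88*) summed to 22.3, 19.2 and 20.2 normalised reads in Ctrl and 4.39, 4.15 and 3.46 in cKO-labelled libraries. The 4 on the same strand (*Igkv1-135*, *Igkv14-111*, *Igkv1-110* and *Igkv10-95*) summed to 2.76, 1.31 and 3.38 in Ctrl and 2.54, 5.32 and 2.70 in cKO-labelled libraries. In the first set 3 rows, *Igkv9-124* among them, were called lower (25.0% of all rows) and 2 were not called, and the log2 difference of the sums was -2.37 (exact permutation p = 0.1). In the second set 1 row was called higher (27.7% of all rows) and 3 were not called, and the difference was 0.52 with overlapping groups (exact permutation p = 0.6). That value was 0.12 without Ctrl library 2, 0.18 without cKO-labelled library 2 and 0.19 without its leading row. The ratio of the opposite to the same orientation within a library, which was examined after the values were seen, was 8.08, 14.6 and 5.97 in Ctrl and 1.73, 0.780 and 1.28 in cKO-labelled libraries, a log2 difference of -2.89 (exact permutation p = 0.1). Opposite-strand segments provided 89.0%, 93.6% and 85.7% of kappa V reads in Ctrl and 63.4%, 43.8% and 56.2% in cKO-labelled libraries. *Igkv1-88* supplied most of the opposite-strand reads in Ctrl, and without it the log2 difference was -1.53 for the opposite-strand sum and -2.05 for the ratio. Those values still hold *Igkv9-124* and *Igkv9-123*, which had to be lower, and without these rows as well the differences were -1.15 and -1.67 (exact permutation p = 0.1 for both). The opposite-strand sum then held *Igkv19-93*, which overlapped between the groups, and *Igkv12-89* alone. Its difference thus rested on *Igkv12-89*, with 24 to 26 reads in Ctrl and 3 to 10 in cKO-labelled libraries, and does not describe the orientation as a class.

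**Figure D3:**
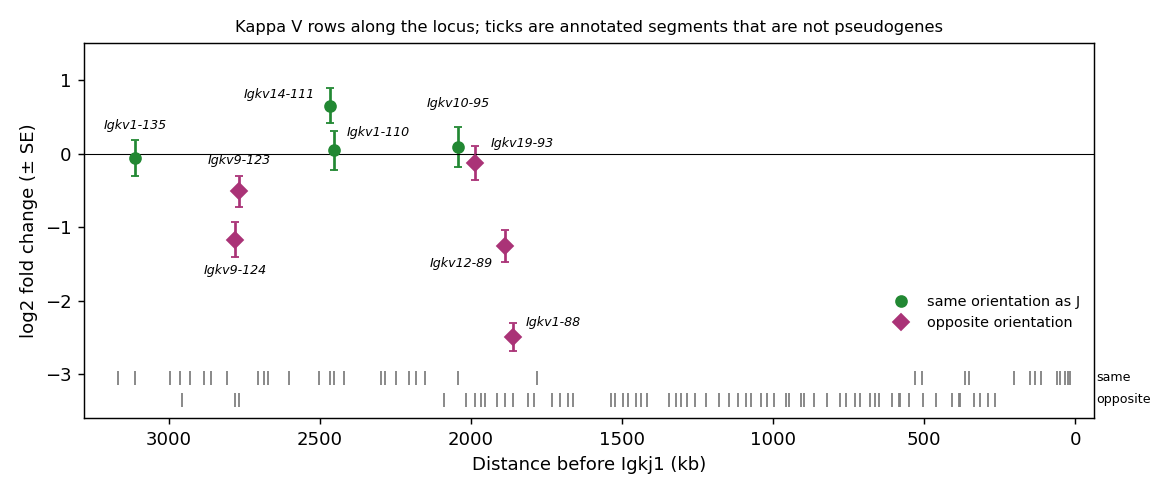
Log2 fold change of the 9 kappa V rows (points, with bars of 1 standard error) against their distance in kilobases before *Igkj1*, with diamonds for the orientation opposite to the J segments and circles for the same orientation. Ticks mark annotated V segments that are not pseudogenes, and all 9 rows lie beyond the midpoint of the locus, far from the J segments.

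Position along the locus was another shared feature. The annotation lists 162 kappa V segments, of which 102 are not pseudogenes, between 18.98 and 3167 kb before *Igkj1*. The 9 with a row lay between 1860 and 3113 kb before *Igkj1*, so that 9 of the 73 annotated segments beyond the midpoint of the locus had a row, and 0 of the 89 nearer to the J segments, although 61 of the latter are not pseudogenes. For J and C all annotated kappa genes had a row, while for lambda 1 of 3 V segments had one, as did 0 of 5 J segments and 0 of 4 C genes.

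*Iglv3*, on chromosome 16 (chr16:19241208-19241679, minus strand), is a V segment of the lambda locus, the minor light chain locus of the mouse. It held 0.637, 0 and 1.09 normalised reads in Ctrl libraries and 2.15, 1.89 and 0.674 in cKO-labelled libraries. The groups overlapped, since cKO-labelled library 3 was below Ctrl library 3. Its log2 fold change was 0.69 (SE 0.28, limma adjusted p = 0.0468), on 6, 0 and 11 reads in Ctrl and 22, 21 and 8 in cKO-labelled libraries. The absence of reads in Ctrl library 2 allows up to 3 reads, or 0.303 normalised reads. The call was not made by edgeR (adjusted p = 0.0943) or DESeq2 (adjusted p = 0.103), and without Ctrl library 2 the limma adjusted p was 0.247. Lambda V took 0.672%, 0% and 1.23% of light chain reads in Ctrl and 6.61%, 5.28% and 2.10% in cKO-labelled libraries. Those shares did not overlap (exact permutation p = 0.1), and the lower kappa reads enter them by construction. The ratio of lambda to kappa, computed with the added 0.5 read kept, was 0.00727, 0.000604 and 0.0129 in Ctrl and 0.0706, 0.0559 and 0.0223 in cKO-labelled libraries. Its log2 difference of 3.54 (exact permutation p = 0.1) was 2.20 without Ctrl library 2, the library with no lambda read.

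**Figure D4:**
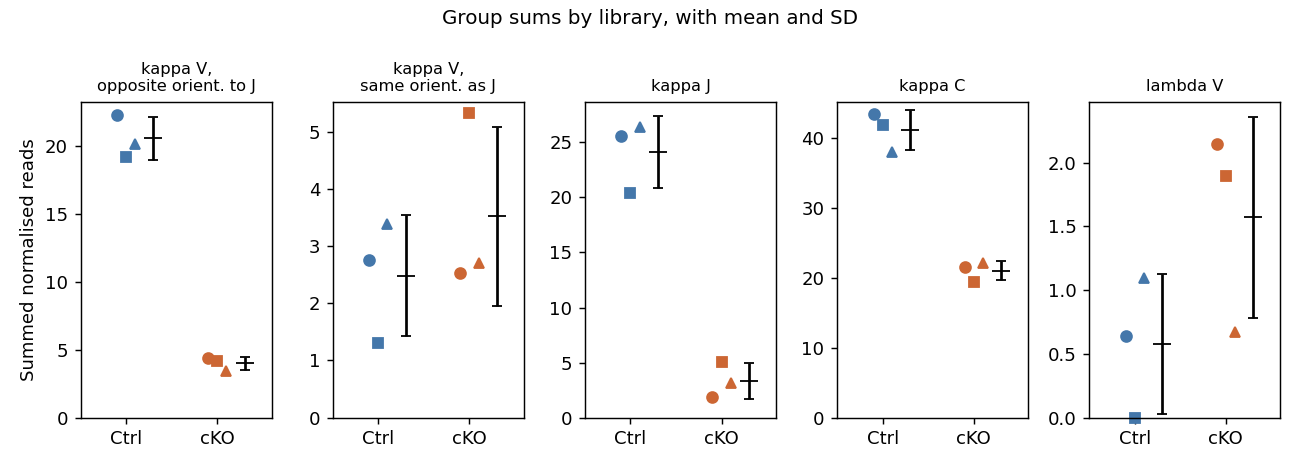
Summed normalised reads (each panel with its own axis from 0) of the kappa V rows by orientation, the kappa J rows, *Igkc* and the lambda V row in each library, Ctrl in blue and cKO-labelled in orange, with circles, squares and triangles for replicates 1, 2 and 3 and bars for the mean and 1 SD. The opposite-orientation V, J and C sums of every cKO-labelled library lie below those of every Ctrl library, while the same-orientation V and lambda V sums overlap.

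Ratios within a library compare classes of segment without any scaling. Kappa J over kappa C was 0.588, 0.487 and 0.695 in Ctrl and 0.0860, 0.259 and 0.141 in cKO-labelled libraries, a log2 difference of -1.995. Kappa V over kappa C was 0.576, 0.489 and 0.619 in Ctrl and 0.321, 0.486 and 0.278 in cKO-labelled libraries, a log2 difference of -0.67, with Ctrl library 2 and cKO-labelled library 2 nearly equal. The first of these pairs of ranges was far apart and the second barely so, with exact permutation p = 0.1 for both. Without *Igkv1-88* the kappa V over kappa C ratio was higher in cKO-labelled libraries, by 0.29 (exact permutation p = 0.4), so the direction of that ratio rested on 1 segment. Without *Igkv9-124* and *Igkv9-123* alone, the groups overlapped (log2 difference -0.59, exact permutation p = 0.2). In the composition of kappa reads, *Igkc* made up 46.2%, 50.6% and 43.2% in Ctrl and 71.1%, 57.3% and 70.5% in cKO-labelled libraries, while J segments went from 27.2%, 24.6% and 30.02% to 6.11%, 14.9% and 9.92%. V segments took 26.04% ± 1.11 and 23.4% ± 4.17 of kappa reads (SD, n = 3 each), which overlapped (exact permutation p = 0.4).

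Heavy chain segments offered a comparison within the same libraries, and these ratios were also examined after the values were seen. Heavy J rows summed to 26.4 ± 8.71 normalised reads in Ctrl and 21.5 ± 4.06 in cKO-labelled libraries and overlapped (exact permutation p = 0.6). Kappa J over heavy J was 0.801, 1.25 and 0.855 in Ctrl and 0.108, 0.200 and 0.142 in cKO-labelled libraries, a log2 difference of -2.71 (exact permutation p = 0.1). Of the 67 heavy V rows, 42 exceeded the deposited value of 0.5 in Ctrl libraries alone and so had to be lower. The heavy V sum was 198 ± 18.3 in Ctrl and 26.01 ± 1.64 in cKO-labelled libraries, and kappa V over heavy V was 0.122, 0.0975 and 0.133 in Ctrl and 0.249, 0.370 and 0.25 in cKO-labelled libraries, a log2 difference of 1.29 (exact permutation p = 0.1). Without the heavy and kappa V rows above 0.5 in 1 group alone, that ratio overlapped between the groups (log2 difference 0.15, exact permutation p = 0.6). It was then 0.285, 0.241 and 0.344 in Ctrl and 0.265, 0.425 and 0.289 in cKO-labelled libraries. With the kappa V row with the most reads left out as well, it was 0.0944, 0.0778 and 0.115 in Ctrl libraries. In cKO-labelled libraries it was 0.208, 0.33 and 0.221, without overlap (log2 difference 1.39, exact permutation p = 0.1). Whether the ratio differed thus depended on 1 kappa V segment, and no difference between heavy and kappa V rows as classes was shown.

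**Figure D5:**
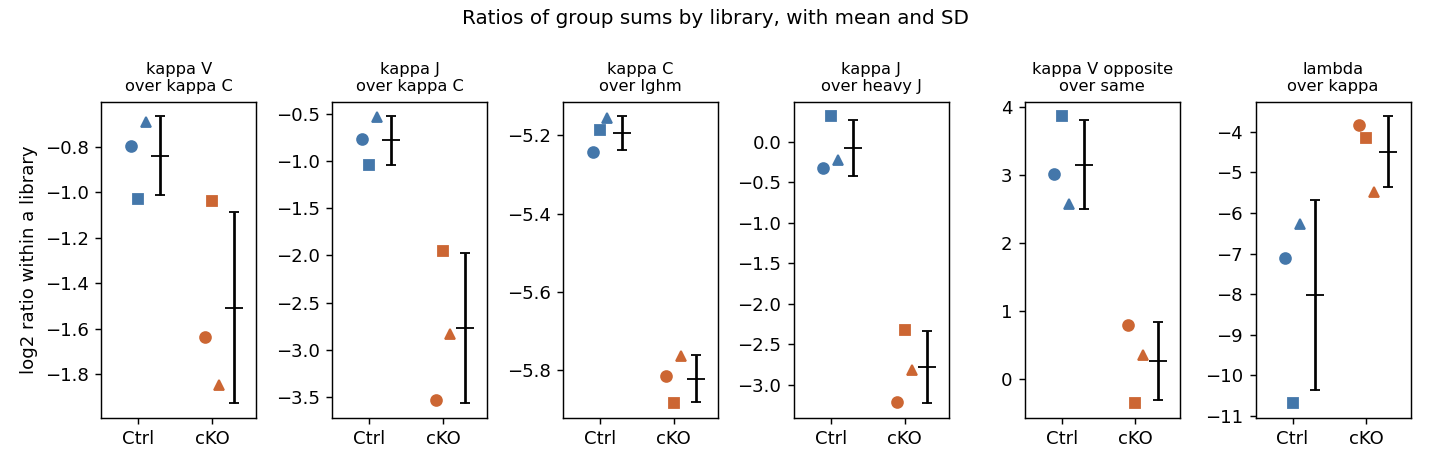
Log2 ratios within each library between classes of light chain segments and between light and heavy chain segments, Ctrl in blue and cKO-labelled in orange, with circles, squares and triangles for replicates 1, 2 and 3 and bars for the mean and 1 SD. Each panel has its own axis, and the cKO-labelled libraries are lower in the 5 panels of kappa V over kappa C, kappa J over kappa C, kappa C over *Ighm*, kappa J over heavy J and opposite over same orientation. They are higher in lambda over kappa, where 1 Ctrl library without lambda reads lies at -10.69.

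Genes that act on the light chain loci also differed. Of 26 transcription factors and chromatin regulators known for light chain transcription or the pre-B transition, 20 were called lower and 1 higher, with a median log2 fold change of -0.50, against 25.0% lower and 27.7% higher in the whole table, whose median was 0.01. *Ikzf3*, which encodes Aiolos, was at 318 ± 19.3 normalised reads in Ctrl and 34.4 ± 2.91 in cKO-labelled libraries (log2 fold change -3.17). *Irf4*, whose product binds the kappa 3′ enhancer, was at 466 ± 9.32 and 121 ± 9.18 (-1.94). *Spib* and *Spi1*, which encode the ETS factors that bind DNA together with IRF4, had log2 fold changes of -1.54 and -1.16, and *Ikzf1*, which encodes Ikaros, had -1.28. All 5 had a limma adjusted p of at most 1.01e-05.

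The recombination machinery moved in both directions, with 7 of 15 genes called lower and 6 higher, where 25.0% and 27.7% of all rows were called. *Rag1* and *Rag2*, the lymphoid subunits of the recombinase, were called higher, at 71.4 ± 15.4 against 208 ± 13.46 and 29.0 ± 1.14 against 66.2 ± 5.04 normalised reads (log2 fold changes 1.55 and 1.16, limma adjusted p = 5.28e-07 and 1.31e-08). *Dntt*, which encodes the terminal transferase that adds bases at joints, was also higher (1.64), while *Polm*, a polymerase used in light chain joining, and *Lig4*, the ligase of end joining, were lower (-3.47 and -1.18). Whether the levels of these genes had a part in the light chain values was not tested.

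Among 12 genes of the surrogate light chain and pre-B cell receptor signalling, 5 were called lower and 3 higher, the latter close to the 27.7% of all rows called higher (25.0% were called lower). *Igll1* and *Vpreb1* encode the surrogate light chain that pairs with the heavy chain before a kappa or lambda chain is made. *Igll1* held 299 ± 21.7 and 303 ± 13.9 normalised reads and overlapped between the groups (log2 fold change 0.02, SE 0.076, limma adjusted p = 0.847), while *Vpreb1* was 0.40 higher on the log2 scale (limma adjusted p = 0.000177). *Vpreb2*, a close relative of *Vpreb1*, was at 12.6 ± 4.26 and 30.6 ± 3.64 normalised reads (log2 fold change 1.26, limma adjusted p = 7.04e-05), and reads of such near-identical genes may be split. *Vpreb3* went the other way, at 78.9 ± 10.5 and 36.8 ± 2.40 normalised reads (log2 fold change -1.07, limma adjusted p = 8.75e-08). *Ccnd3* and *Syk* were also called lower (-0.80 and -0.78), and *Blnk* was called higher (0.66). *Cd79a*, which carries the Cre insertion in 1 allele of the cKO-labelled group, had a log2 fold change of -1.58 (limma adjusted p = 1.24e-11).

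Some markers of stages and cells that could carry light chain transcripts differed between the groups as well. Late pre-B and plasma cell sums were lower in cKO-labelled libraries, while mature B sums overlapped. Late pre-B markers, found in cells that follow the sorted stage, summed to between 1208 and 1364 normalised reads in Ctrl and between 367.9 and 397.5 in cKO-labelled libraries, and 5 of the 6 with a row were called lower and 1 higher (25.0% and 27.7% of all rows). Most of the sum was *Bach2*, at 878 ± 97.1 and 296 ± 13.7. *Il2ra* was at 13.3 ± 0.920 and 1.63 ± 0.0786 normalised reads and *Nrgn* at 131 ± 15.3 and 4.73 ± 0.748. *Cd2*, whose protein was gated against, had 18 to 38 reads in Ctrl and 4 to 10 in cKO-labelled libraries. Their part in the light chain result was not tested. In bulk RNA, fewer cells that transcribe a light chain locus and less transcript per cell cannot be told apart.

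Plasma cell markers summed to between 832.2 and 904.5 normalised reads in Ctrl and between 321.8 and 355.0 in cKO-labelled libraries, with 5 of 9 called lower and 1 higher, and most of that sum was *Irf4* and *Slamf7*, which pre-B cells also express. The joining chain gene *Jchain*, a defining plasma cell marker, held 9, 40 and 9 reads in Ctrl and 2, 0 and 2 in cKO-labelled libraries, and *Tnfrsf17* had no row. Mature B markers summed to between 165.2 and 196.1 in Ctrl and between 196 and 212.8 in cKO-labelled libraries, which overlapped, and 1 of 12 was called lower, 5 higher and 6 neither. *Ms4a1*, which encodes CD20, held 24 to 48 reads in every library. Of 15 early LPre-B markers 5 were called lower and 6 higher, and of the 7 T cell markers *Lck* alone, which pre-B cells also express, had a row. Of 10 neutrophil markers 6 were called higher, as was 1 of 5 macrophage markers, and 1 of 4 erythroid markers was called lower, where 25.0% of all rows were called lower and 27.7% higher. Their part in the light chain values was likewise not tested.

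Overlapping annotation bears on 7 of these rows. The J and C rows, 6 in all, lie inside the first intron of the long non-coding RNA *Gm30211* on the same strand, and *Iglv3* overlaps *Gm35545*, in counts made without regard to strand. Neither non-coding gene had a row, so reads from their unspliced transcripts could not be told apart from those of the segments.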

How the data were processed

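Per the labels and the study's methods, RNA was depleted of ribosomal RNA, single-end reads were trimmed with cutadapt 4.0, aligned to mm10 with HISAT2 without strand and counted with featureCounts 2.0.1, and limma 3.48.0 was used by the authors. The deposited table holds a linear signal of 13426 rows by Entrez ID, made by the authors as reads plus 0.5 over an effective library size in units of 1000000. Whole reads were recovered for 100% of values (tolerance 0.01 of a read), which gave 9732498 to 11006834 reads per library. RefSeq annotation of GRCm38.p6 named 13008 rows and GENCODE 3, and 415 stayed without a name. Reads carried no molecular identifiers, so limits from a count of 0 cover counting error only.

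Rows were tested with limma 3.58.1 (R 4.3.3) on log2(value + 1), with intensity trend and robust eBayes, no covariate, and p-values adjusted by Benjamini-Hochberg over the table. Sums used the values with the added 0.5 read removed, and sums and ratios were compared on the log2 scale by an exact two-sided permutation test over 20 assignments. Lambda sums and ratios used the deposited values, because Ctrl library 2 had no *Iglv3* read. Scripts were tested on simulated data. The members and gene lists were chosen with earlier results of these data known. The text names all J, C and lambda rows and the kappa V rows, and from each list genes of up to 6 with the largest absolute fold change past the threshold, plus *Rag1*, *Rag2*, *Igll1*, *Vpreb1*, *Irf4* and *Ighm*. *Upf1*, *Gas5*, *Spn*, *Ms4a1* and genes without a row were named as checks of the labels and markers. Alternatives were a replicate block, eBayes without trend, voom, edgeR 4.0.16 and DESeq2 1.42.0 on recovered reads, 2 other scalings, a pseudocount of 0.1, a minimum mean log2 value of 1, the leading row left out and each library left out. Leaving out rows above 0.5 in 1 group alone, and the ratios to heavy chain segments, between orientations and of J to V, were added after seeing the data.

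The study's methods call replicates independent, but the labels name no mouse for a library, so p-values measure the spread between these libraries. Within a group, chi-square over its degrees of freedom was 4.357 to 21.3 for pairs of libraries, above sampling noise, and none was treated as a repeat. One of the markers used for the gate is not reported here.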

Additional observations from a re-analysis of the deposited data

How the results depend on the processing

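Apart from leaving out libraries, 83 comparisons of sums, ratios and counts of called rows were labelled the same, 8 counts moved and 1 ratio reversed under 2 settings. Sums and ratios, whose p could not go below 0.1, could only change direction, so for them the label does not measure stability. Some of them shrank to overlapping groups without rows above 0.5 in 1 group alone. Kappa V over heavy V went to 0.15, but to 1.39 without overlap when *Igkv1-88* was left out too. The kappa V sum, without *Igkv1-88* too, went to -0.32. The number of rows called lower was 8 to 10 throughout, and 9 without each library. The number called higher, 2, was 1 with the replicate block, eBayes without trend, voom, edgeR, the pseudocount of 0.1 or the minimum mean, 0 with DESeq2 or median centring (1 in each at an unadjusted p below 0.05), and 0 to 2 without 1 library. The minimum mean tests fewer rows. The kappa V over kappa C ratio reversed to 0.29 without *Igkv1-88*, and to 0.65 when the rows above 0.5 in 1 group alone were left out too, an alternative chosen after seeing the data. Rows with few reads changed sign: *Igkv1-135* to 0.15 with voom, 0.01 (0.009276) scaled to total reads and 0.034 with the smaller pseudocount, and -0.33 to 0.079 without 1 library, *Igkv1-110* to -0.064 and *Igkv10-95* to -0.01 (-0.01486) with median centring, and -0.24 to 0.24 and -0.19 to 0.31 without 1 library, and *Igkv19-93* -0.34 to 0.044 without 1 library. Scaling moved the median fold change of all rows from 0.01 to 0.19 (total reads) and -0.10 (median centring). *Igkv9-123*, which had to differ because it entered through Ctrl alone, was called by eBayes without trend, voom, edgeR, median centring and the smaller pseudocount, with adjusted p from 0.00665 to 0.131 over all alternatives. *Iglv3* lost its call under 7 alternatives other than leaving out libraries (adjusted p 0.0114 to 0.247 over all), and the lambda over kappa difference of 3.54 was 2.20 to 4.41 without 1 library. The sample numbers in the labels run consecutively for equal replicate numbers, but no source says that they mark a shared litter, batch or day, and the replicate numbers did not pair libraries by the data (correlations of deviations 0.082, -0.030 and -0.021 for equal numbers). With the replicate block 9 rows were called lower and 1 higher, and the sums kept their sizes with a smallest possible p of 0.25. Apart from the values named here, the cause of a change was not tested. Depth limits the V rows with under 30 reads per library.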
